A study of Caenorhabditis elegans with 4 samples.

Results

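The central region of chromosome V of Caenorhabditis elegans held 516 of the 9630 peaks in the list deposited for the whole series, a map of SWD-3 binding in embryos made by chromatin immunoprecipitation with sequencing (ChIP-seq). Its members are the peaks of that list on V whose midpoint lies above base 5230000 and at or below base 15690000 in WormBase WS220 coordinates, a stretch of 10.46 Mb that is the middle 50% of the chromosome. Position alone chose them. The last series peak outside the lower bound, at V 5204222 to 5204425, ranked 4436 of the 9630 by score, and the first one inside, at 5269091 to 5269292, ranked 4642. At the upper bound the last peak inside, at 15674715 to 15675205, ranked 4225, and the first one outside, at 15731305 to 15732621, ranked 9440.

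All samples came from mixed-stage embryos of the wild-type strain N2, from a population of males and hermaphrodites, fixed with formaldehyde after bleaching gravid adults grown in liquid culture. There are 2 ChIP libraries, made with an affinity-purified rabbit polyclonal antibody raised against a stretch of SWD-3, and 2 input DNA libraries. Whole embryos of many stages were mixed, so a peak cannot be assigned to a cell type or a stage. No input values entered the comparisons, so a site bound by SWD-3 and a site that would be called with any antibody cannot be told apart.

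SWD-3 belongs to the WDR5 family, WD40-repeat proteins that fold into a propeller and hold together the SET1/MLL complexes, which methylate lysine 4 of histone H3. That mark is known for its place at the promoters of active genes, and in the worm these complexes act in the germ line and the embryo. Worm autosomes have centres that recombine little and carry many conserved and essential genes, between arms that recombine more and are richer in repeats. Chromosome V is known for large families of chemoreceptor genes. No gene, promoter or sequence is given for any peak below, because the gene table at hand follows another assembly, WBcel235.

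Each peak has a start, an end and 1 score, the authors' own value per peak, whose scale no header names. Scores rank peaks within a list here, with rank 1 the highest. They are set against those of another list only in the correlations over overlapping peaks. Spearman's rho there uses the order of the scores, and Pearson's r uses the log scores themselves, although their scale is unknown. The 3 lists used are the series list and 1 list for each ChIP replicate, with 2698 and 4580 peaks genome-wide. No source used here says how the series list was made from the libraries, and its reads may be those of the replicates. With 1 list per replicate there is no test over samples, so the shares and intervals below describe these lists, and no difference between regions was tested. The 95% Wilson intervals cover counting error only. Read depth is unknown, so a missing peak means that none was called.

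Most peaks of the chromosome V centre were found again in at least 1 replicate. A common stretch of 1 bp or more counted as an overlap. Of the 516 members, 130 overlapped a peak in both replicates (25.2%, interval 21.6 to 29.1), where the share over all series peaks was 15.2%. A further 214 overlapped a replicate 2 peak alone (41.5%, against 26.7% of all series peaks) and 24 a replicate 1 peak alone (4.65%, against 3.4%). The remaining 148 overlapped none (28.7%, interval 24.9 to 32.7), against 54.7% of all series peaks. Counted by replicate, 344 members met a replicate 2 peak (66.7%, against 41.9%) and 154 a replicate 1 peak (29.8%, against 18.6%). Replicate 2, whose list is longer, thus met more of the members than replicate 1.

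The arms of V were far from these values. In the left arm 434 of 564 series peaks overlapped no replicate peak (77.0%, interval 73.3 to 80.2), and in the right arm 907 of 1067 (85.0%, interval 82.7 to 87.0). Peaks shared with both replicates made up 5.50% and 4.69% there. The centres of the other nuclear chromosomes lay closer, with 29.0% shared with both replicates (695 of 2394, interval 27.2 to 30.9) and 19.1% with neither (interval 17.6 to 20.7). Between those centres the share with neither ran from 12.0% on II to 27.6% on I, so the 28.7% of V was above all 5, although its interval takes in the value of I. The share with both ran from 24.8% on I to 37.8% on X, and V lay just above I.

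Sharing followed score. Members were split into 5 classes of near-equal size by score. In the highest-scoring class 46 of 103 peaks overlapped both replicates (44.7%, interval 35.4 to 54.3) and 3 overlapped neither (2.91%, interval 0.995 to 8.22). In the lowest class 14 of 104 overlapped both (13.5%, interval 8.19 to 21.3) and 56 neither (53.8%, interval 44.3 to 63.1). The classes between them changed in steps, with 27.2%, 21.4% and 19.4% shared with both. Peaks found in replicate 2 alone kept a share of 47.6% in each of the first 3 classes before going down to 38.8% and 26.0%. Median widths from the highest class to the lowest were 370, 405, 275, 254 and 201.5 bp, so the second class was the widest, and the part of width in the sharing was not tested.

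**Figure D1:**
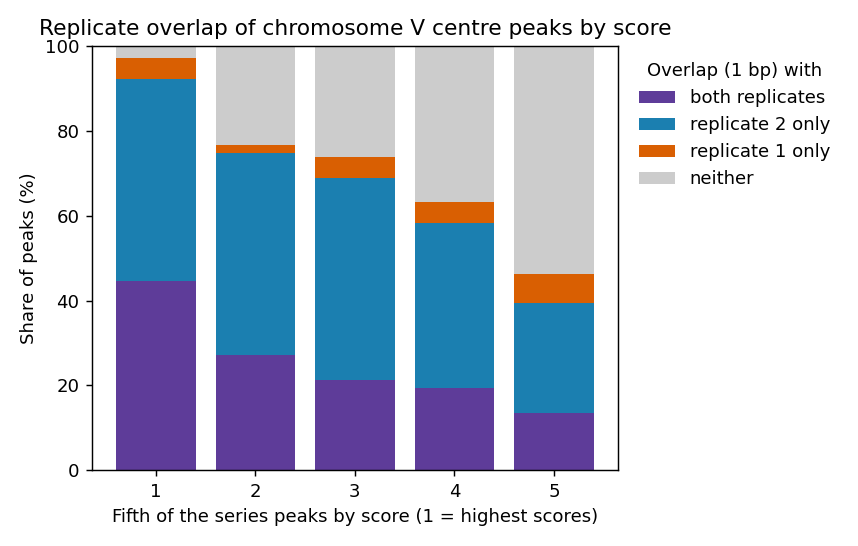
Share of chromosome V centre series peaks (%, vertical axis) by the replicate lists they overlap, in 5 classes by series score (horizontal axis, 1 is the highest). Peaks that overlap neither replicate take 2.91% of the highest class and 53.8% of the lowest.

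The strong sites of this stretch are the members among the highest-scoring 10% of the whole series list. There were 69 of them, or 13.4% of the members (interval 10.7 to 16.6), against 10% of all series peaks by definition. The other chromosome centres together held 13.4% too, with a range from 8.13% on IV to 19.5% on III. Of the 69, 38 overlapped both replicates (55.1%, interval 43.4 to 66.2), against 44.7% of all strong series peaks. Another 29 overlapped replicate 2 alone and 1 replicate 1 alone. The last strong member overlapped neither (1.45%, interval 0.256 to 7.76), against 19.6% of strong peaks genome-wide.

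The highest-scoring member was the peak at V 14038307 to 14039027, 721 bp wide, with series score 157.4. It ranked 5 in the series list and 189 in replicate 1 with 529.85. In replicate 2 it ranked 6 with a score of 3100, tied with the peak at 9086688 to 9091188. Next came a close pair with 482 bp between its peaks. One lay at 5778020 to 5778527 (score 132.5, rank 17) and the other at 5776904 to 5777537 (score 129.35, rank 19). Both were called as separate peaks in each replicate too. They ranked 55 and 37 in replicate 2 but 771 and 859 in replicate 1. The peak at 7580241 to 7580836 (score 128.26, rank 20) had rank 48 in replicate 2 and 190 in replicate 1, and that at 10807816 to 10808263 (score 110.14, rank 39) had ranks 107 and 255. The sixth member, at 9343704 to 9344663, scored 87.91 (rank 82). It was the best supported by replicate 1 among the first 15, with rank 34 there and rank 35 in replicate 2.

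The remaining members of the first 15 lay at ranks 109 to 181 of the series list. They differed in their replicate 1 rank. The peaks at 14054919 to 14055515, 15002072 to 15002723 and 12303412 to 12303775 ranked 250, 158 and 263 in replicate 1. Those at 5592299 to 5592658, 5684530 to 5684880, 11326869 to 11327333 and 11610461 to 11610858 ranked 892, 643, 1216 and 1756 there. No replicate 1 peak was called at 7230746 to 7231148, with a series score of 79.25, or at 11113189 to 11113515, with 67.01. In replicate 2 all 15 were present, at ranks 6 to 590. The 15 were between 327 and 960 bp wide, so none was among the wide peaks described further on.

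Over all overlapping pairs the series score followed replicate 2 more closely than replicate 1. Spearman's rho was 0.59 over 345 pairs with replicate 2 (Pearson's r of log10 scores 0.54) and 0.07 over 165 pairs with replicate 1 (r = 0.01). Between the replicates it was 0.46 over 153 pairs (r = 0.43). These pairs are sites of the same libraries, the series list may share their reads, and the values are a description. A peak that met several peaks of the other list entered once for each of them. Without the window of 8.8 to 8.9 Mb rho was 0.09 with replicate 1 and 0.61 with replicate 2. At a reciprocal overlap of at least 50% the correlation with replicate 1 was 0.30 over 107 pairs and that with replicate 2 was 0.74 over 207. The median distance between midpoints was 29 bp for series and replicate 2 and 58 bp for series and replicate 1. Only overlapping peaks were paired, so short distances follow in large part from that choice. Replicate 2 peaks were the wider of the pair in 338 of 345 pairs with the series, with a median ratio of 1.87.

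**Figure D2:**
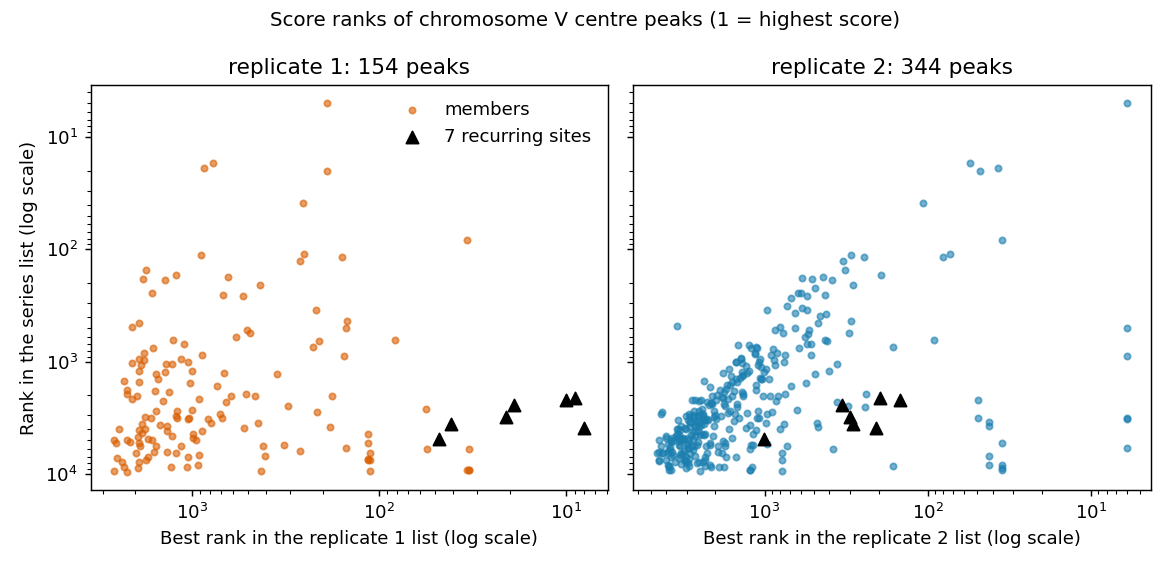
Rank in the series list (vertical axis, log scale) against the best rank of an overlapping peak in replicate 1 (left, 154 members) and replicate 2 (right, 344 members), with rank 1 the highest score. The 7 triangles are the recurring sites between 8.8 and 8.9 Mb, which rank 8 to 48 in replicate 1 and 2114 to 4915 in the series list.

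The strongest replicate 1 peaks of the chromosome V centre lay elsewhere, between 8.8 and 8.9 Mb. This window was picked out because of its strong sites, so its values are a description. It held 7 of the 9 centre peaks that ranked among the first 50 of replicate 1. They had nearly the same width, 1239 to 1329 bp, and came in a run of 3 and a run of 4. The first run started at 8847205, 8849683 and 8852855, with replicate 1 scores of 2059.79, 1819.39 and 1236.46. The second started at 8889321, 8891771, 8894931 and 8897408, with 2062.08, 1866.57, 1354.12 and 2079.1. Within both runs the steps between starts were alike, 2478 and 3172 bp in the first and 2450, 3160 and 2477 bp in the second.

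Replicate 2 called the same 7 sites, at ranks 148 to 1012, with scores of 1430.88, 1056.3 and 523.65 in the first run. In the second run they were 1300.4, 1022.19, 1078.07 and 1278.75. In both replicates the third site of the first run was thus the lowest of that run. Over all members the median series rank was 3962. The series list also had a peak at each of the 7 sites, at middle to upper ranks. Its scores there were 18.09, 13.05 and 8 in the first run and 18.68, 16.46, 11 and 10.36 in the second, at ranks 2114 to 4915, so none was a strong site by the definition above.

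In replicate 1 and the series list the first 3 sites of the second run repeated the first run at a distance of about 42 kb. Some of the surrounding peaks did so too. The fourth site of the second run had no counterpart. In replicate 2 the starts of the first 2 sites of each run were paired in this way, 42077 and 42088 bp apart. Those of the third were not, but its peak was 1820 bp wide in the first run and 1362 bp in the second. Pairs were found by starts alone, so they cannot tell whether the third site lacks a counterpart in replicate 2. In replicate 1 the offset between the starts of the first 3 sites of each run was 42116, 42088 and 42076 bp. Outside the runs, a replicate 1 peak at 8820673 (rank 1771) had a counterpart 42095 bp on (rank 707), and one at 8836846 a counterpart 42101 bp on. Among all pairs of peaks in the window between 5 and 80 kb apart, the 200 bp range of offsets with most pairs was centred on 42.1 kb in replicate 1, with 5 of 68 pairs. Replicate 2 gave 42.1 kb as well, with 4 of 60 pairs. In the series list it was 42.05 kb, with 8 of 240 pairs made up of 16 of the 24 peaks in the window. The range with the next most pairs held 4, 2 and 6 pairs in the same order of lists, so the number of pairs alone separates this offset little from others. The widths of the 8 paired series peaks matched to different degrees. The peak at 8835576 to 8845825 was 10250 bp wide and its counterpart at 8877676 to 8887933 was 10258 bp wide. The peak at 8824577 was 8201 bp wide against 10972 bp for its counterpart (ratio 1.34), and that at 8813916 was 2282 bp wide against 1731 bp (ratio 0.759), the furthest apart in either direction. The narrow peak at 8820695 to 8821109 (rank 3088, 415 bp) was paired with one at 8862754 to 8863255 (rank 2925, 502 bp). Whether the underlying sequence is repeated at this distance was not tested.

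**Figure D3:**
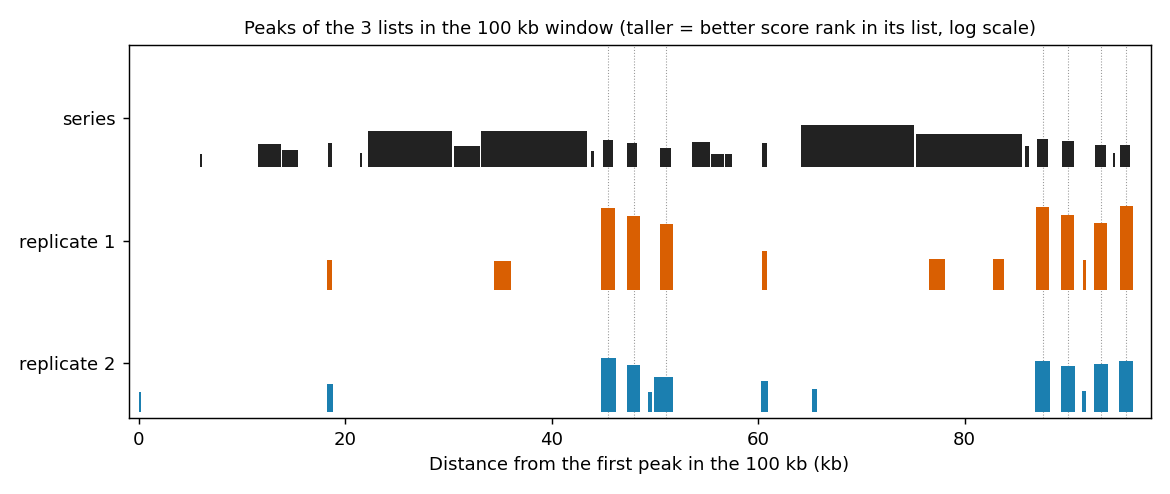
Peaks of the series, replicate 1 and replicate 2 lists in the 100 kb window, by distance from its first peak (kb, horizontal axis), with bar height showing score rank in its own list (taller is better ranked, log scale) and dotted lines at the 7 recurring sites. The wide series bars cover stretches where replicate peaks are few and low-ranked. The 7 sites are tall in replicate 1, at ranks 8 to 48, and lower in replicate 2, at ranks 148 to 1012.

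The window also stood out for covered length. Its 24 series peaks covered 59.2 kb, or 59.2% of the 100 kb and 19.4% of everything the series list covered in the chromosome V centre. Replicate 1 peaks covered 14.5 kb of it and replicate 2 peaks 12.8 kb. Much of the series total lay in 4 wide peaks, at 8824577 to 8832777, 8835576 to 8845825, 8866551 to 8877522 and 8877676 to 8887933. The first of them, with score 32.35, was the strong member that overlapped no replicate peak. The third had the highest score of the 4, 44.52 (rank 477), and met a single replicate 2 peak of rank 3433 that was 491 bp wide.

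Wide peaks were few in the chromosome V centre but took much of its covered length. The median width was 313 bp (quartiles 217 and 465, range 146 to 13178), against 319 bp for all series peaks, 281 bp in the other centres, 296 bp in the left arm of V and 494 bp in its right arm. Members wider than 1500 bp numbered 28 (5.43%, interval 3.78 to 7.73), against 9.28% of all series peaks, and made up 40.2% of the 304.4 kb covered. In the other centres 2.17% of peaks were that wide (interval 1.66 to 2.84) and took 16.3% of the covered length. The left arm of V lay near its centre, with 7.80% of peaks that wide (interval 5.86 to 10.3) taking 42.7% of the covered length, and in the right arm the values were 23.7% and 77.2%. Peaks of up to 200 bp numbered 104 (20.2%), against 20.4% of all series peaks.

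The widest member was at 8475353 to 8488530, 13178 bp long with score 30.53. It met 5 replicate 1 peaks, the best at rank 1270, and no replicate 2 peak. The peak at 15499382 to 15509677, 10296 bp wide, met no replicate peak. Of the 28 peaks wider than 1500 bp, 16 overlapped neither replicate (57.1%, interval 39.1 to 73.5) and 3 overlapped both. Over all series peaks of any width 54.7% overlapped neither and 15.2% both, against 28.7% and 25.2% of the members. Shares by width are not given for the whole list, so those here describe the chromosome V centre alone. Members wider than 200 and up to 400 bp had the lowest share with neither, 42 of 247 (17.0%, interval 12.8 to 22.2), and those wider than 400 and up to 800 bp the highest share with both, 39 of 99 (39.4%, interval 30.3 to 49.2). Among the highest-scoring members without a replicate peak, the first was the wide one at 8824577 described above. It was followed by those at 11481308 to 11484160 (score 26.73), 10721651 to 10722612 (26.11), 15625628 to 15627342 (24.61) and 14204234 to 14205750 (24.23). All 5 were at least 962 bp wide.

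Along the centre the series list averaged 49.3 peaks per Mb. Over the 9 full bins of 1 Mb the mean was 45.8 ± 13.9 (SD, n = 9 bins, which are neighbours and not replicates). The arms held 107.8 per Mb on the left and 204.0 on the right, and the other centres between 45.4 on X and 81.3 on I. The sparsest bin was 7 to 8 Mb with 29 peaks per Mb, where replicates 1 and 2 were also at their lowest density, with 13 and 25. The densest full bin was 8 to 9 Mb with 76, which contains the window of recurring sites. The part bin from 15 to 15.69 Mb, next to the right arm, held 67 peaks or 97.1 per Mb, while the replicates had 17.4 and 36.2 per Mb there. In the replicates the full bins averaged 25.2 ± 7.81 and 41.4 ± 8.78 per Mb (SD, n = 9 bins), with maxima of 34 at 9 to 10 Mb in replicate 1 and 55 at 14 to 15 Mb in replicate 2.

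**Figure D4:**
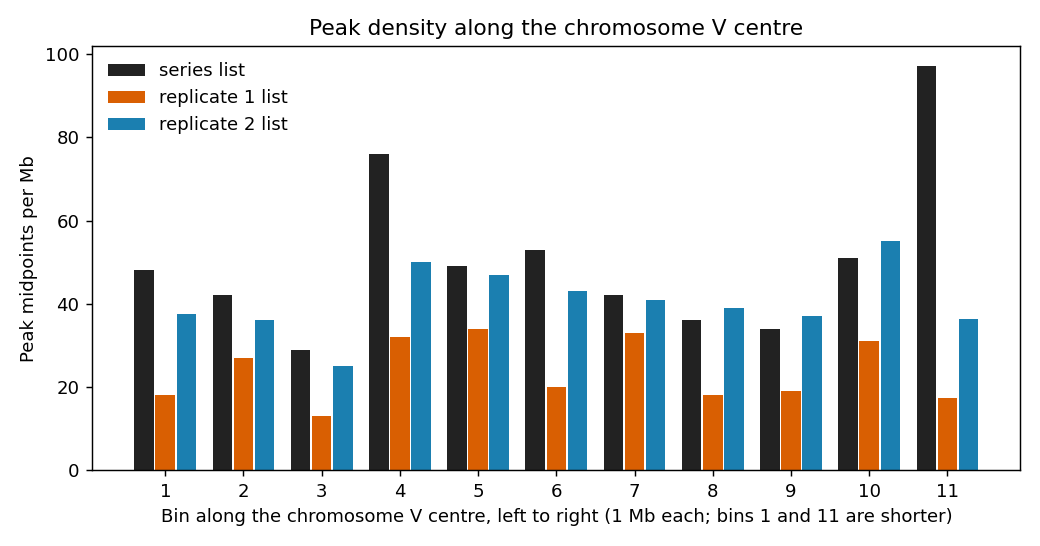
Peak midpoints per Mb (vertical axis) in the series, replicate 1 and replicate 2 lists, in 11 successive bins of the chromosome V centre (horizontal axis, left to right, the first and last shorter than 1 Mb). The series list reaches 76 in bin 4 and 97.1 in bin 11, where the replicate lists stay at or below 50 per Mb.

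The bins differed in how many peaks recurred. In the bin of 9 to 10 Mb, 25 of 49 members overlapped both replicates and 2 overlapped neither, and 11 were strong, the highest number of any bin. The 25 are not all separate sites. Among them, 5 met the same broad replicate 2 peak at 9086688 to 9091188 and 5 met that at 9340794 to 9344818. In the part bin above 15 Mb, 5 of 67 overlapped both and 42 overlapped neither. Leaving out all members above 15 Mb lowered the share with neither replicate from 28.7% to 23.6% and raised that with both from 25.2% to 27.8%. Leaving out the window of 8.8 to 8.9 Mb gave 27.6% and 24.6%.

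Neighbouring members lay a median of 7184 bp apart, end to start (quartiles 946 and 30747 bp), compared with 1028 bp in the left arm and 437.5 bp in the right arm. Of the 515 gaps, 164 were under 2000 bp (31.8%), against 51.4% of all gaps in the series list. In the arms of V the shares were 59.9% and 76.5%, and in the other centres they ran from 19.8% on II to 33.1% on I. The chromosome V centre held the longest gap of the whole list, 227957 bp between 7237519 and 7465477, in the sparsest bin. Each replicate had 1 peak inside it, at the same place, starting at 7443132 in replicate 1 (rank 518) and 7443086 in replicate 2 (rank 3718). The next longest gap, of 139922 bp after 7587990, lay in the same bin and ranked 8 of 9622 in the whole list.

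**Figure D5:**
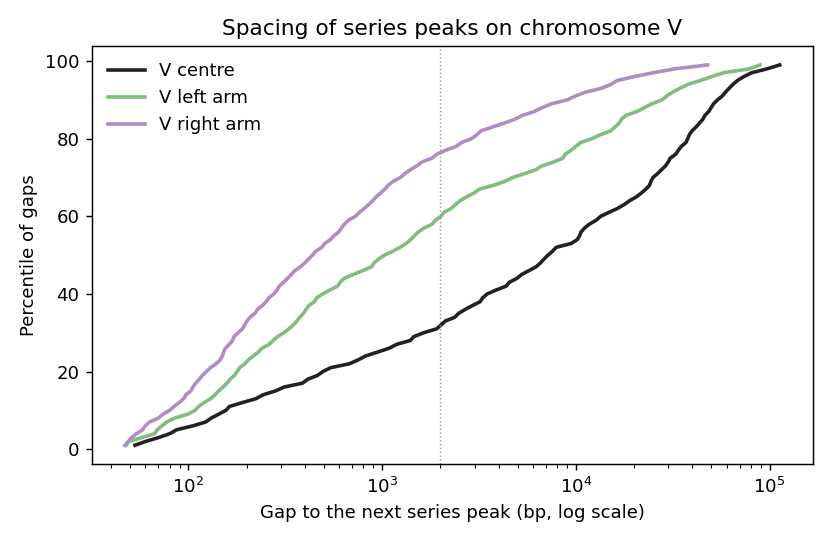
Percentile (vertical axis) of the gap between neighbouring series peaks (bp, horizontal axis, log scale) in the chromosome V centre and its arms, with a dotted line at 2000 bp. The centre curve lies to the right of both arms, with 31.8% of its gaps under 2000 bp against 59.9% and 76.5%.

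When members less than 2000 bp apart were joined, 352 regions remained, of which 284 were single peaks, 31 were pairs and 37 held 3 or more. Peaks that stood alone had the higher scores, with a median of 12.1, and 54 of the 284 were strong. The 170 peaks in regions of 3 or more had a median score of 7.62, and 8 were strong. Of the lone peaks 31 overlapped neither replicate (10.9%, interval 7.80 to 15.1), and of those in regions of 3 or more 99 did (58.2%, interval 50.7 to 65.4). The shares with both replicates were closer, at 27.5% (interval 22.6 to 32.9) and 21.8% (interval 16.2 to 28.6). Over all series peaks, lone or grouped, 54.7% overlapped neither replicate, 15.2% overlapped both and 10% were strong. The split into lone and grouped peaks is not given for the whole list, so it is not shown to be particular to this centre. The region with most peaks was at 15614371 to 15629346, with 12 peaks, none of which met a replicate peak. Another near it, at 15599050 to 15605103, held 8 peaks and no replicate peak either.

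Strong members were mostly far from each other, with a median of 96.5 kb between neighbouring midpoints (range 1.05 to 765.6 kb), and 13 of 68 distances were at most 20 kb. Such distances and groups are not given for other parts of the list, so these counts cannot be compared with them. A close group was defined as at least 3 strong members with successive midpoints at most 20 kb apart, and 2 were found. The first spanned 5776904 to 5791161 and consisted of the close pair named above and a peak at 5790850 (score 36.09), which was in replicate 2 alone. The second spanned 12291624 to 12318449, with peaks at 12291624 (score 37.33), 12303412 (score 75.69) and 12318130 (score 36.7). Its middle peak was in both replicates and the outer ones in replicate 2 alone. The count of groups rests on the definition: it was 0 with strong sites limited to the highest-scoring 5% or with neighbours at most 10 kb apart, 5 at 50 kb, and 14 when strong meant the highest-scoring 25%.

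The replicate lists were also read in the other direction. Replicate 1 had 253 peaks in the chromosome V centre, of which 152 overlapped a series peak (60.1%, interval 53.9 to 65.9), against 65.2% of all replicate 1 peaks. Replicate 2 had 427, of which 323 did (75.6%, interval 71.4 to 79.5), against 83%. The other replicate was met by 153 of the replicate 1 peaks (60.5%, interval 54.3 to 66.3, against 62.5% genome-wide) and 142 of the replicate 2 peaks (33.3%, interval 29.0 to 37.9, against 34.9%). In the arms of V replicate 1 peaks were found in replicate 2 at 40.4% on the left (interval 30.9 to 50.8) and 43.5% on the right (interval 33.5 to 54.1). Replicate 2 peaks were found in replicate 1 at 28.1% and 31.6% there. A series peak was met by 53.9% of replicate 1 peaks in the left arm and 77.6% in the right. For replicate 2 these shares were 87.6% (interval 80.6 to 92.3) and 94.9% (interval 89.3 to 97.6), both above its share in the centre.

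The highest-scoring replicate 2 peaks fell into narrow and broad ones. V 14038218 to 14039157 and 5776759 to 5777628 were narrow, at ranks 6 and 37, and each met 1 series peak, of rank 5 and 19. The other 3 were broad and met several series peaks. At 9086688 to 9091188, 4501 bp wide and also with a score of 3100, the series list had 5 peaks, the best at rank 504, and the best replicate 1 peak ranked 149. At 9340794 to 9344818 it had 5 as well, among them the sixth-ranked member. At 10605602 to 10612554, 6953 bp wide, it had 4, and the best of them ranked 3428 although the replicate 2 peak ranked 42 and the best replicate 1 peak ranked 407. In all, 12 replicate 2 peaks and 9 replicate 1 peaks of the centre met more than 1 series peak.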

How the data were processed

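The data are 3 peak lists from SWD-3 ChIP-seq of mixed-stage C. elegans embryos. Per the submitters' processing notes reads were aligned with BWA and the build is ce10; per the file headers coordinates are WormBase WS220. The source column names MACS for the replicate lists and MACS v2 for the series list. No source used here gives the thresholds, the control or any pooling. Each deposited peak has 1 score from the authors, of unstated scale.

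Overlaps (at least 1 bp), bins, gaps and 95% Wilson intervals were computed in Python 3.11.15 (scipy 1.17.1, pandas 2.3.3, numpy 2.4.6) and tested on simulated lists. Chromosome lengths were the largest peak coordinate, and centres the middle 50%, with bounds rounded to 10 kb. The lists give no read counts, so depth and the precision of a single peak are unknown. Regions named are the 15 highest-scoring and 5 widest members, the 5 highest-scoring without a replicate peak, close groups, the 5 highest-scoring peaks of each replicate, peaks at the bounds and extreme bins; others were chosen after their values were seen. Members and lists were chosen with earlier results of these data known. Planned sequence and gene comparisons were not made, since no WS220 genome or annotation was used here.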

Additional observations from a re-analysis of the deposited data

How the results depend on the processing

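No paired analysis was possible because no result comes from a test and no input peak list was used. Leaving out members at 8.8 to 8.9 Mb or above 15 Mb was chosen after seeing the data. Of 43 alternatives, 16 stayed within the interval or spread of the value reported. At a reciprocal overlap of at least 50%, 14.1% of members met both replicates and 53.3% neither, replicate 1 and 2 peaks met a series peak at 42.3% and 48.5%, and the score correlations were 0.30 and 0.74. With midpoints within 200 bp, 21.1% met both and 36.6% neither, and 52.2% of replicate 1 peaks met a series peak. In the higher-scoring 50% of the series list, 31.4% met both and 17.5% neither, density was 29.0 per Mb and median width 364 bp, and 45.8% and 54.3% of replicate 1 and 2 peaks met a series peak. In the higher-scoring 50% of each replicate list those shares were 69.4% and 98.98%. With 1 replicate left out, 29.8% to 66.7% of members met the other and 33.3% to 70.2% did not. Joining peaks under 2000 bp apart gave 33.7 per Mb. Without members above 15 Mb, 23.6% met neither. Close groups of strong sites numbered 0 for the highest-scoring 5% and at 10 kb, 14 for the highest-scoring 25% and 5 at 50 kb. Depth is unknown, so an uncalled peak is no evidence of absence.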

Other observations

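Replicate peaks of the chromosome V centre without a series peak numbered 101 in replicate 1 and 104 in replicate 2. In replicate 1 they were not confined to low scores, since 38 of them lay among the 124 centre peaks in the higher-scoring 50% of that list. In replicate 2 it was 2 of 197. The first of them in replicate 1 was at V 14741557 to 14743557 (rank 127), 2001 bp wide, then 7988837 to 7991580 (rank 214) and 12509890 to 12510644 (rank 328), and none of the 3 overlapped a replicate 2 peak. In replicate 2 the first was at 14443568 to 14444194, with rank 2185, and it did overlap a replicate 1 peak. Of the 101, 28 were found in replicate 2, against 269 of 939 among all replicate 1 peaks without a series peak, a similar share. The counts in the higher-scoring 50% are not given over the whole lists. The replicate peaks named here were chosen after their values were seen.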
